A study of Bos taurus with 20 samples.

Results

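The genes described here encode the mitochondrial respiratory chain and the ATP synthase, measured in the endometrium, the inner lining of the uterus, of cows biopsied in 2 periods after calving. Members were taken by name: every probe whose gene name in the array design began with NDUFA, NDUFB, NDUFC, NDUFS or NDUFV, SDHA to SDHD, UQCR, COX4 to COX8, or ATP5. That gave 212 of 43653 probes and 90 of 25325 named genes. By the letters of their names 39 belong to complex I, 4 to complex II, 8 to complex III, 16 to complex IV and 16 to complex V, 83 subunits in all. Another 6 (NDUFAF1 to NDUFAF4, SDHAF1 and SDHAF2) help to assemble complexes I and II. The remaining gene, COX4NB, is named for its place beside COX4 and has the RefSeq symbol EMC8, so it is no chain subunit. The name rule also counts NDUFA4 with complex I although it is known as a complex IV subunit, and COX7A2L with complex IV although it joins complexes into supercomplexes. It counts ATP5S with complex V, a gene named as a coupling factor of the synthase but with the RefSeq symbol DMAC2L.

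The respiratory chain passes electrons from NADH (through complex I) and succinate (through complex II) to ubiquinone, then through complex III and cytochrome c to complex IV, which reduces oxygen. Complexes I, III and IV pump protons across the inner mitochondrial membrane, and complex V uses the return flow to make ATP. Most subunits are encoded in the nucleus, as all members here are, and a small core is encoded by mitochondrial DNA. In the endometrium the epithelium of the lining and glands, the stroma, vessels and immune cells all contribute such transcripts.

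The study took tissue from 10 female cows (Bos taurus) in an early period, 42 to 86 days after calving, and again in a late period, 343 to 436 days after calving. Both biopsies were taken with forceps on day 7 after oestrus, from the horn of the corpus luteum's own side, so the groups share the stage of the cycle and differ in time since calving. The 20 total RNA samples were labelled with Cy3 and hybridised to 1-colour Agilent arrays, one sample per array. No breed, age, parity or treatment is given in the sources used here, and the cows were older at the late biopsy. The titles and animal numbers pair the early and late samples of each cow, whereas the source names of the late samples count on from cow 11 to cow 20; the pairing by title and animal number was used.

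Values are log2 signal minus the 75th percentile of the array, so 1 unit is a doubling relative to the rest of the array, and a level says nothing about another probe's level. Between 71.8% and 80.2% of the 43803 noncontrol spots of each array were well above background and none was saturated. All 90 genes had at least 1 measured probe, defined as well above background on at least 8 of 20 arrays. For 89 of them the probe that represents the gene, its brightest, was above background on all 20 arrays, and for NDUFS3 a single late spot was set aside as an outlier. The arrays lay on 5 slides of which 2 held early samples only, 2 held late samples only, and 1 held the early samples of cows 9 and 10 with the late samples of cows 1 and 2. Slide and period can therefore be separated only through that 1 slide. Because the biopsies are bulk tissue, fewer cells of a type and less RNA per cell cannot be told apart.

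No respiratory chain gene passed the test between the periods. The test was limma with the cow as a block and Benjamini-Hochberg adjustment over all 19419 genes measured, at an adjusted p of 0.05, and 1.32% of all genes passed it (0.541% higher late and 0.778% lower late). The smallest adjusted p among the members was 0.0864. At an unadjusted p below 0.05 there were 19 of the 90 genes, 21.1%, close to the 22.6% of all genes. Their directions were unequal: 18 were higher late, 20% of the members against 12.4% of all genes, and 1 was lower late, against 10.2% of all genes. Without cow 3, 7 or 10 the 19 genes became 12, 11 and 11, all smaller by over 1.5 times. These were 13.3%, 12.2% and 12.2% of the members, against 18.6%, 19.2% and 19.7% of all genes.

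Small positive differences were common. The log2 change, late minus early, was above 0 for 70 of the 90 genes, 77.8%, against 52.9% of all genes. It was positive in at least 9 of 10 cows for 15 genes, 16.7%, against 8.47% of all genes. Its median was 0.11 against 0.02 for all genes tested, and the SD of the 10 cows' own medians, 0.19, was larger than that difference. Without cow 9 the members' median was 0.07 and 61 genes were positive, 67.8% against 54.4% of all genes. The early and late ranges overlapped for every member. Ranges were apart in only 0.124% of all genes, so finding none among 90 is near that share. As the plot of changes by gene shows, the estimates were narrowly spread and most 95% intervals included 0.

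**Figure D1:**
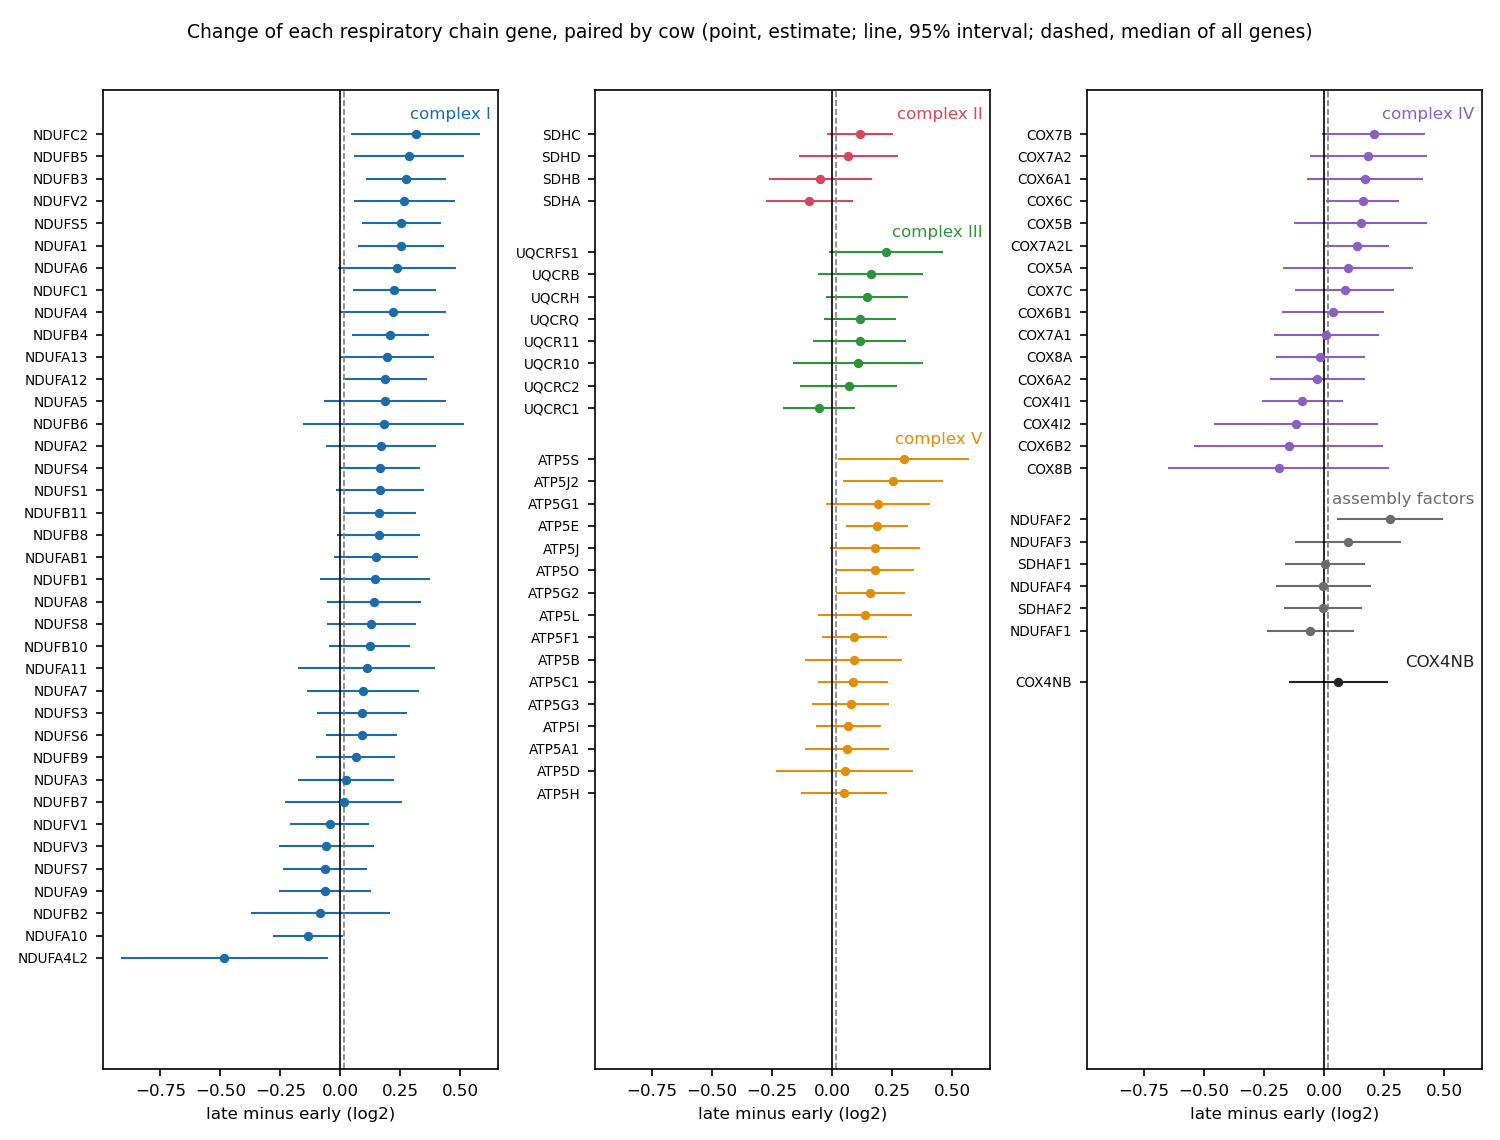
Late minus early change (log2, x axis) of 89 of the 90 genes, named on the y axis and grouped by complex; points are estimates of the paired fit over 10 cows, lines their 95% intervals, and the dashed line the median of all genes (0.02). By the probes that represent them, all 16 genes counted with complex V lie right of 0, the highest being ATP5S (RefSeq symbol DMAC2L). NDUFA4L2 at -0.48 lies farthest from 0.

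The cows differed more than the complexes. The median change over all members was 0.44 in cow 9 and 0.34 in cow 10, between 0.09 and 0.17 in cows 1, 3, 7 and 8, between -0.02 and 0.00 in cows 2, 4 and 5, and -0.21 in cow 6. Cow 6 was below 0 in each of the 5 complexes, and cows 1, 7, 8, 9 and 10 were above 0 in each. The early arrays of cows 9 and 10, on the slide shared by both periods, had the lowest median member levels of the early group, 3.35 and 3.24, where the other 8 early arrays lay between 3.45 and 3.64. The late medians ran from 3.34 in cow 6 to 3.82 in cow 9. Slide was examined in 3 ways. With slide as a further block the members' median was 0.18, with a median SE of 0.37. No member had p below 0.05 there, against 1.89% of all genes. With slide as a random block the members' median was 0.12. On the single shared slide, between different cows, it was 0.16 with 81 genes positive, 90% against 45.8% of all genes.

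**Figure D2:**
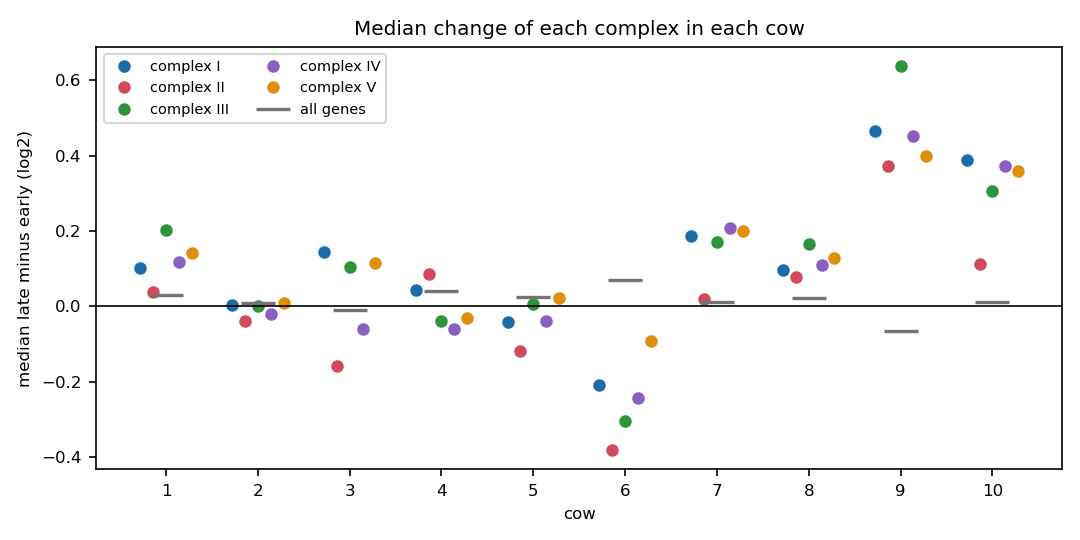
Median late minus early change (log2, y axis) of the genes of each complex in each of the 10 cows (x axis); coloured points are complexes and grey bars the median of all genes. Cow 9 reaches 0.64 in complex III and cow 6 lies at -0.38 in complex II.

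Complex I, the NADH dehydrogenase, had a median change of 0.15, with 31 of 39 genes positive. Of these, 10 had p below 0.05 in the higher direction and 1 in the lower. NDUFB3, an accessory subunit of the membrane arm, had the smallest p of all members. Its early levels ran from 2.09 to 2.40 with a median of 2.30, and its late levels from 2.29 to 2.86 with a median of 2.52. All 10 cows were higher late, by 0.07 to 0.57, although the ranges overlap between 2.29 and 2.40. The change was 0.27 ± 0.08 (SE, n = 10 cows), 1.21-fold, and the adjusted p of 0.0864 from limma missed the threshold.

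NDUFS5, an accessory subunit facing the intermembrane space, ran from 4.27 to 4.54 early (median 4.45) and from 4.47 to 4.85 late (median 4.72). The change of 0.25 ± 0.08 was positive in 9 of 10 cows, with limma's adjusted p at 0.0983. NDUFA1, a small membrane subunit needed for assembly, went from an early median of 4.30 (4.05 to 4.62) to a late median of 4.56 (4.28 to 4.97). It was higher late in all 10 cows, by 0.25 ± 0.08, at an adjusted p of 0.117, and its highest late value belonged to cow 9. With the cow as a random effect in place of the fixed block, NDUFB3 and NDUFS5 passed, at adjusted p of 0.0331 and 0.0297 from limma. They were the only members to pass in any setting. That setting passed more genes of every kind, 724 of all 19419 against 256 in the main fit, and 2 of the 90 members. Within the shared slide the changes were 0.12 ± 0.21 for NDUFB3 and 0.16 ± 0.23 for NDUFS5, and with slide as a further block they were 0.10 ± 0.30 and 0.07 ± 0.40.

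Estimates for the core subunits of complex I given here differed in sign, a difference that was not tested. NDUFS1, the largest iron-sulfur subunit, had medians of 2.01 early and 2.15 late and a change of 0.16 ± 0.08, positive in 9 cows. NDUFV1, which binds FMN and takes electrons from NADH, had -0.05 ± 0.07 with 3 cows higher. The 95% intervals of these changes were -0.02 to 0.35 and -0.21 to 0.12, so both included 0. NDUFV2, the partner of NDUFV1, stood at 0.27 ± 0.10. NDUFA10, which is not a core subunit, was lower late in 9 of 10 cows, by -0.14 ± 0.07, with an adjusted p of 0.246.

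The member farthest from 0 was NDUFA4L2, a paralogue of NDUFA4 known as a hypoxia-induced gene. Early levels ran from -2.59 to -1.06 with a median of -2.25, and late levels from -3.15 to -2.08 with a median of -2.31. The change was -0.48 ± 0.20, 0.715-fold, at an adjusted p of 0.182. Cows were split: 6 were lower late, by up to -1.52 in cow 10, and the other 4 were higher by up to 0.40. Between the periods on the shared slide the difference was -1.12 ± 0.40, and with slide as a further block it turned to 0.31 ± 0.66. NDUFA4 itself had the opposite sign, from an early median of 4.68 to a late median of 4.88, with a change of 0.22 ± 0.10 in 9 cows and an adjusted p of 0.227. The difference between the paralogues' changes was not tested.

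**Figure D3:**
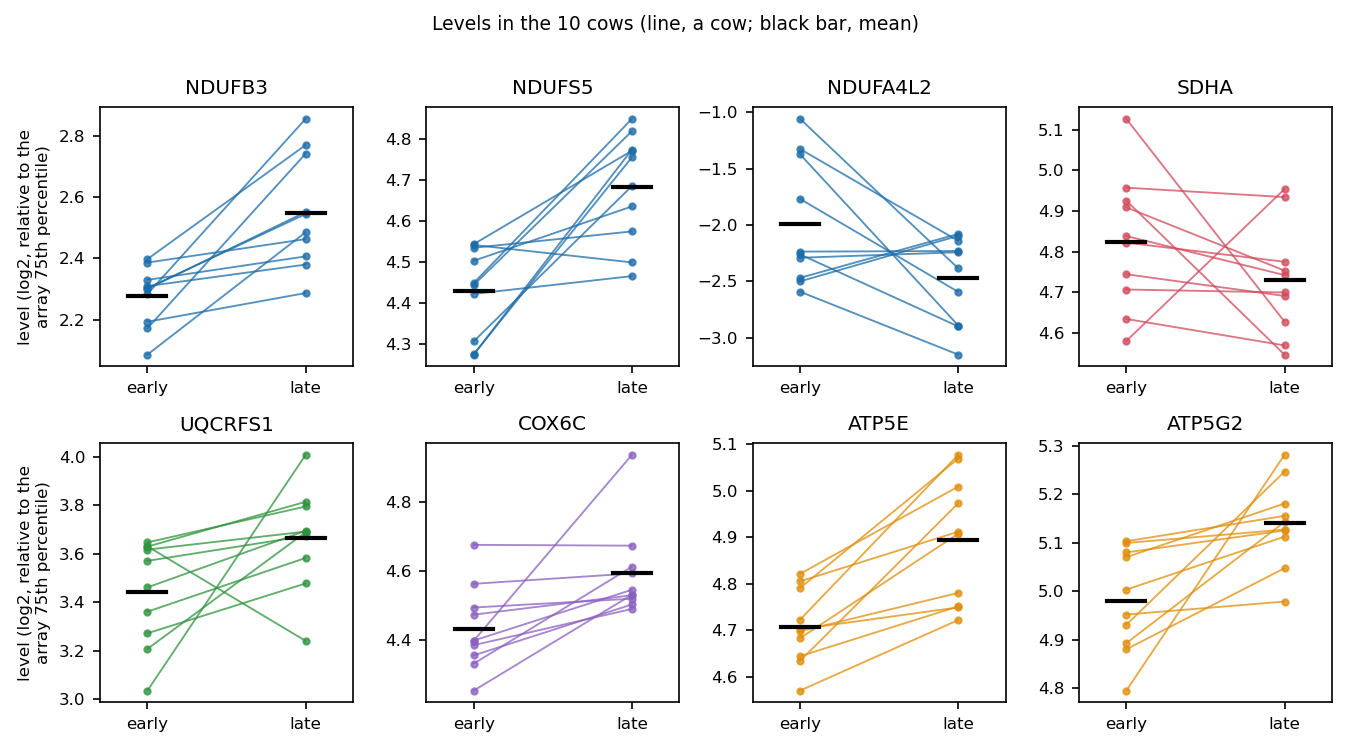
Levels (log2 signal minus the array's 75th percentile, y axis, a different range in each panel) of 8 members in the early and late biopsy of each cow; thin lines join the 2 samples of a cow and black bars are group means. NDUFB3 and ATP5E are higher late in all 10 lines, while the NDUFA4L2 lines go both ways, from -1.52 to 0.40.

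Complex II, succinate dehydrogenase, links the chain to the citric acid cycle and was the complex with the smallest median, 0.01, with 2 of 4 genes positive. SDHA, the flavoprotein that oxidises succinate, ran from 4.58 to 5.13 early (median 4.83) and from 4.55 to 4.95 late (median 4.72). It was lower late in 9 of 10 cows, its mean change was -0.10 ± 0.08, and cow 9 alone was above 0, at 0.37. Of its 3 other probes, A_73_P106801 and A_73_P049521 were lower late in all 10 cows, by -0.25 ± 0.09 and -0.35 ± 0.13, with limma's adjusted p over all probes at 0.129 and 0.150, and the remaining one changed by -0.08 ± 0.10. SDHB, the iron-sulfur subunit, changed by -0.05 ± 0.10. The membrane anchors SDHC and SDHD changed by 0.12 ± 0.06 and 0.07 ± 0.09, in 7 and 6 cows. By the probes that represent them, no member of complex II had p below 0.05, and the median was below 0 without cow 4, 8, 9 or 10 (lowest -0.05, without cow 9) and under quantile normalization (-0.01).

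In complex III, the cytochrome bc1 complex, 7 of 8 genes were positive with a median of 0.12, or 0.07 without cow 9. The Rieske iron-sulfur protein UQCRFS1 had the smallest p. Its early levels ran from 3.03 to 3.65 (median 3.52) and its late levels from 3.24 to 4.01 (median 3.69). It was higher late in 9 cows, by 0.22 ± 0.11 at an adjusted p of 0.247, with cow 9 at 0.97 and cow 6 at -0.39. UQCRH, the hinge subunit between cytochromes c1 and c, and UQCRQ, a small structural subunit, changed by 0.15 ± 0.08 and 0.12 ± 0.07. The core protein UQCRC1 was the only negative member, at -0.06 ± 0.07. None of the 8 had p below 0.05.

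In complex IV, cytochrome c oxidase, 10 of 16 genes were positive and the median was 0.06. That median was 0.01 without cow 9, 0.03 without cow 10 and 0.10 without cow 6. COX6C, a ubiquitous accessory subunit, ran from 4.25 to 4.68 early (median 4.40) and from 4.49 to 4.94 late (median 4.54). It was higher late in 9 cows, by 0.16 ± 0.07 with an adjusted p of 0.199, but on the shared slide the difference was -0.01 ± 0.22. COX7A2L changed by 0.14 ± 0.06 in 9 cows at an adjusted p of 0.206. COX4I1, the largest nuclear-encoded subunit, changed by -0.09 ± 0.08, and COX5A by 0.10 ± 0.12.

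Several complex IV subunits exist as a common form and a form of heart, muscle or other tissue. Among the common forms, COX6A1 changed by 0.17 ± 0.11, COX6B1 by 0.04 ± 0.10, COX7A2 by 0.18 ± 0.11 and COX8A by -0.02 ± 0.09. The muscle-type forms COX6A2, COX7A1 and COX8B changed by -0.03 ± 0.09, 0.01 ± 0.10 and -0.19 ± 0.21. COX4I2, an isoform known from lung and from hypoxic cells, changed by -0.12 ± 0.16, and the testis-type COX6B2 by -0.15 ± 0.18. None of these 9 isoforms had p below 0.05, and the sign of COX6A2, COX6B2, COX7A1 or COX8A turned in at least 1 other setting of scaling or of probes. COX8B varied most between cows, from -4.11 to -1.26 early and from -4.23 to -1.94 late. No probe on the array carried the name COX7B2 or COX8C.

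By the probes that represent them, all 16 genes counted with complex V had a positive change, with a median of 0.11 and the lowest at 0.05. The highest, 0.30, was ATP5S, the gene with the RefSeq symbol DMAC2L. Other measured probes were negative in ATP5I (-0.22), ATP5B (lowest -0.12), ATP5D (-0.10), ATP5J2 (-0.03) and ATP5A1 (-0.005). With slide as a further block ATP5S stood at -0.60 ± 0.61 and ATP5D at -0.005 ± 0.66. Positive in all 10 cows were ATP5E, the epsilon subunit of the central stalk, and ATP5G2, a gene for the c subunit of the rotor ring. ATP5E ran from 4.57 to 4.82 early (median 4.70) and from 4.72 to 5.08 late (median 4.91), a change of 0.19 ± 0.06 with an adjusted p of 0.112. ATP5G2 ran from 4.80 to 5.10 early (median 4.98) and from 4.98 to 5.28 late (median 5.14), a change of 0.16 ± 0.07 with an adjusted p of 0.189. In both genes the late group lay higher, with overlapping ranges. ATP5J2, a membrane subunit, changed by 0.25 ± 0.10 in 8 cows, at an adjusted p of 0.159. The other c subunit genes, ATP5G1 and ATP5G3, encode the same mature protein and changed by 0.19 ± 0.10 and 0.08 ± 0.07. The head subunits ATP5A1 and ATP5B, which carry the nucleotide sites, changed by 0.06 ± 0.08 and 0.09 ± 0.09.

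Of the 6 assembly factors in the name rule, 3 were positive and the median was 0.00. NDUFAF2, a factor for late steps of complex I assembly, changed by 0.27 ± 0.10 in 8 cows at an adjusted p of 0.149. NDUFAF3 changed by 0.10 ± 0.10 and NDUFAF1 by -0.06 ± 0.08. COX4NB changed by 0.06 ± 0.09.

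Other genes of energy metabolism were followed in 9 lists, and no gene of these lists passed the test. The 12 measured of 13 protein genes of mitochondrial DNA, whose products form the core of complexes I, III, IV and V, had a median of 0.00, with 5 of 12 positive. COX1, the catalytic core of complex IV, changed by -0.02 ± 0.06 and ATP6 by -0.00 ± 0.06, with narrow intervals, and ND1 changed by 0.12 ± 0.08. Assembly factors of all complexes, a list that includes the 6 above and COX7A2L, had a median of 0.10 with 34 of 44 positive, led by COX20 (0.30 ± 0.10). Electron carriers and other parts around the chain had 0.15 with 23 of 24 positive. ETFA, the electron-transferring flavoprotein of fat oxidation, had the smallest p there (0.36 ± 0.09, adjusted p 0.0674). The citric acid cycle list had 0.05 with 13 of 19 positive, led by SUCLA2 (0.34 ± 0.09) and MDH1 (0.32 ± 0.09).

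The mitochondrial ribosome had a median of 0.05 with 49 of 74 positive, led by MRPL3 (0.26 ± 0.08), and the import machinery 0.05 with 18 of 28 positive, led by TOMM5 (0.30 ± 0.10). Regulators of mitochondrial biogenesis had 0.07 with 13 of 18 positive. PPARGC1A, the coactivator that drives mitochondrial gene expression in muscle and fat, was higher late in all 10 cows, by 0.70 ± 0.28 at an adjusted p of 0.182. Glycolysis lay below 0, with a median of -0.14 and 3 of 16 positive. Its leading genes were PFKP (-0.58 ± 0.18), ALDOA (-0.36 ± 0.13) and PGK1, which was lower late in all 10 cows (-0.35 ± 0.14, adjusted p 0.178). The hypoxia response list had -0.05 with 8 of 18 positive. In it BNIP3, a mitophagy receptor, stood at -0.31 ± 0.09 and CA9, a carbonic anhydrase, at 0.49 ± 0.15.

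Markers of the cell types that a biopsy can hold also differed between the periods, and some passed the test. Epithelial markers had a median change of 0.32 with 8 of 9 positive and none past the threshold, and their median level per array ran from 1.44 to 2.97 early and from 2.03 to 3.35 late. Stromal fibroblast markers had -0.28 with 0 of 8 positive and 1 passing lower, HAND2 (-0.87 ± 0.18), and array medians of 5.24 to 5.95 early and 5.01 to 5.83 late. Macrophage markers had -0.73 with 1 of 10 positive and 3 passing lower (VSIG4, CD68 and MSR1), and array medians of -0.57 to 1.68 early and -0.92 to 0.88 late. The T and NK cell list had -0.18 with 2 of 10 positive and NKG7 passing lower. Pericyte, endothelial and smooth muscle markers had -0.23, -0.15 and 0.05 with none passing. The epithelial median was 1.36 in cow 9 and 0.61 in cow 10, the cows with the highest respiratory chain medians, 0.65 in cow 4 and 0.01 in cow 6. The part of these cell types in the respiratory chain values was not tested.

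**Figure D4:**
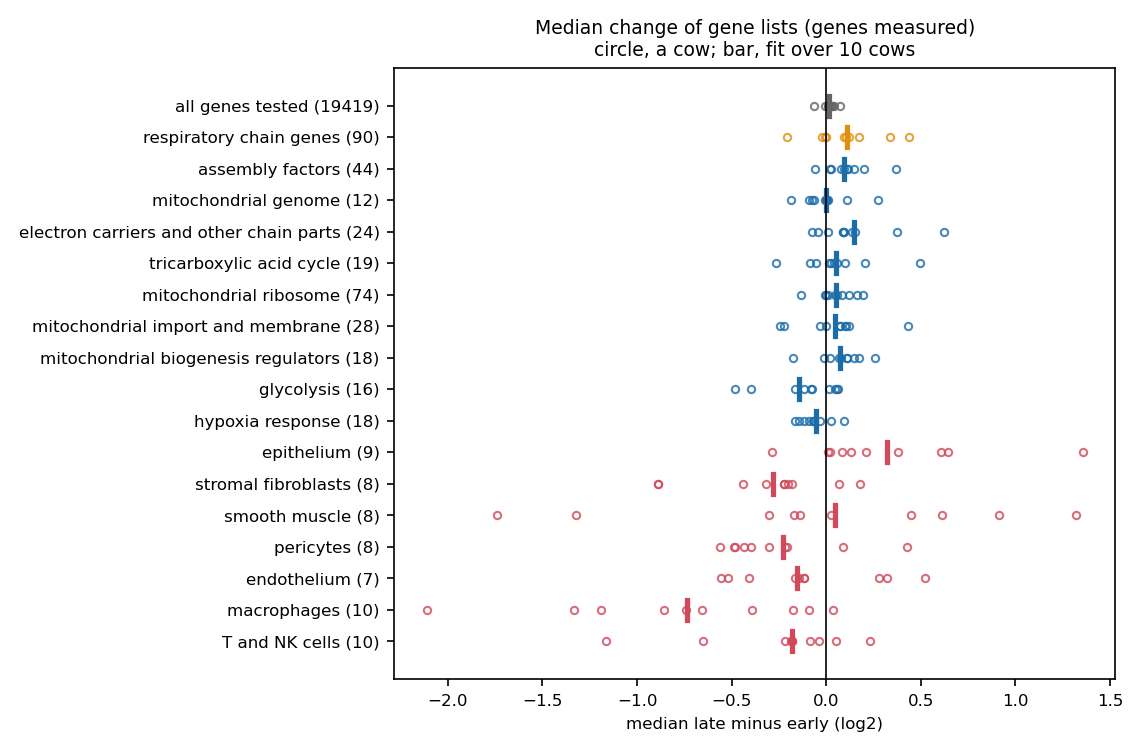
Median late minus early change (log2, x axis) of gene lists (y axis, number of measured genes in brackets); open circles are single cows and bars the paired fit over 10 cows. Respiratory chain genes sit at 0.11, mitochondrial DNA genes at 0.00, glycolysis at -0.14, epithelial markers at 0.32 and macrophage markers at -0.73.

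The probes of one gene did not always agree, and their letters and positions are given where that matters. All probes are 60 bases long, positions are those of the file headers' build Btau_3.1, and a stretch of 30 bases is printed for each, read 5′ to 3′. Of the 64 genes with several measured probes, 54 had all changes of one sign and 10 did not. Of the 204 measured probes 154 were positive, 75.5% against 47.4% of all 33759 probes tested. At an unadjusted p below 0.05 there were 48, 23.5%, close to the 23.8% of all probes. None passed, where 381 of all probes did. The smallest adjusted p in limma's fit over all probes was 0.0596, for an NDUFA4 probe. Exon or untranslated region is not given for any probe, because no gene annotation of that build was used.

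COX7B, a small subunit of complex IV, shows the disagreement best, and its probes are printed because the letters show which strand each one reads. All 4 share a stretch of 44 bases, the first 10 of which, or their reverse complement, are in capitals.
A_73_P070927: GGAATGGAGAgaacagtaatcatcccagct
A_73_P084854: GGAATGGAGAgaacagtaatcatcccagct
A_73_P213370: agctgggatgattactgttcTCTCCATTCC
A_73_P040541: agctgggatgattactgttcTCTCCATTCC

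The first of these lies at chr17:61163736-61163795 on the plus strand and A_73_P213370 at the same position on the minus strand, its exact reverse complement over all 60 bases. The files place A_73_P084854 at chr17:61163363-61163422 and A_73_P040541 at chr17:61163720-61163779, both on the minus strand, although the letters of A_73_P084854 run with those of the plus-strand probe. The pair that reads one way gave changes of 0.21 ± 0.10 and 0.24 ± 0.09, and the reverse complements gave -0.19 ± 0.11 and -0.11 ± 0.09. The reverse complements were far dimmer. In the same order, the first pair had mean levels of 3.1 and 3.0 early and 3.3 and 3.3 late. The reverse complements had -3.1 and -2.3 early and -3.3 and -2.4 late. COX7B is represented above by A_73_P070927, with early levels of 2.79 to 3.43 and late levels of 2.99 to 3.65. Which strand the mature transcript follows was not tested.

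UQCRB, a subunit of complex III, had a further probe on the strand opposite to its RefSeq mRNA probes, at chr14:66190538-66190597 (minus). It is printed because its change was the most positive of all measured member probes, with copies of the letters TAACCC in capitals.
A_73_P154247: cTAACCCTAACCCcttcctggggctttatt

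Its levels were -3.37 ± 0.89 (SD, n = 10) early and -2.44 ± 0.93 late, a change of 0.93 ± 0.27 in 9 of 10 cows, at an adjusted p of 0.0852 in limma's fit over all probes. The plus-strand probe that represents UQCRB, at chr14:66195074-66195133, changed by 0.16 ± 0.10 and its neighbour by 0.18 ± 0.11. The next most positive probe, of COX5B, stood at 0.81 ± 0.56 with an adjusted p of 0.395. The motif TAACCC, searched on both strands, is the unit of the vertebrate telomere repeat. It occurs in 2 or more copies in 0.0183% of the 43653 probes on the array and in neither of the other UQCRB probes.

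NDUFB4, a membrane-arm subunit of complex I, is the opposite case, printed because its overlapping probes differ in letters and gave similar estimates; the differences between them were not tested. Capitals mark the positions at which A_73_P485243 differs.
A_73_110074: acatctcCtattaagtctgacaGtgatgtc
A_73_P040766: acatctcCtattaagtctgacaGtgatgtc
A_73_P485243: acatctcAtattaagtctgacaAtgatgtc

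Counted from the 5′ end of A_73_110074 (chr1:66321456-66321515, plus), the substitutions are C35A and G50A, 2 mismatches in an overlap of 58 bases. The changes were 0.20 ± 0.08, 0.21 ± 0.07 and 0.23 ± 0.09, each positive in 9 of 10 cows. The fourth measured probe, which crosses an intron, stood at 0.37 ± 0.09 with an adjusted p of 0.0697 over all probes. The remaining probe was not measured.

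COX4I2 had 2 probes on opposite strands that share 10 bases as reverse complements, shown in capitals.
A_73_107705: CTGCTGATTTggtggcagcgggtctatgtg
A_73_P135556: AAATCAGCAGacctgtgaatccacagaaga

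The first, at chr13:62060174-62061484 on the plus strand and crossing an intron, was above background on all 20 arrays and represents the gene. The other, at chr13:62060124-62060183 on the minus strand, exceeded background on 7 arrays of the early group and on 5 of the late group, with a change of -0.02 ± 0.13.

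Base composition of the probe went with the change. Across the 90 genes the correlation between the percentage of G and C and the change was r = -0.43 (Spearman's rho -0.41), against r = -0.08 (rho -0.12) across all 19419 genes; genes share arrays and are not independent. Among the 30 members at 35 to 40% the median change was 0.15 and 27 were positive. Among the 23 members at 50% and over it was 0.01 and 13 were positive. Within genes of several probes the correlation was r = -0.15 over the 64 such members and r = -0.23 over all 8472 such genes. The first 30 bases of 2 probes, with G and C in capitals, are printed as a poorer and a richer example, NDUFB3 at 35% over its 60 bases and NDUFA4L2 at 55%; the members run from 31.7% to 60%.
NDUFB3 A_73_104436, chr2:93966547-93966606 plus: CtttCttataaaaaGatttCttCaCtGtaG
NDUFA4L2 A_73_117493, chr5:60719107-60719166 plus: CtCCCCtaCttCCCtCGGtCCCCaGGGatC

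Position along the gene went with the change too. For 32 members with probes at least 300 bases apart on the genome, introns included, the probe farthest upstream had a lower change than the 3′-most probe in 22, with a median difference of -0.07. Across 6739 such genes this was so in 72.5%, with a median difference of -0.11. In NDUFV1 the changes were -0.05 near the 3′ end and -0.39 upstream, and in UQCRC1 -0.06 and -0.29. NDUFA11 and NDUFA13 ran the other way, at 0.11 and 0.41 and at 0.19 and 0.35. The upstream NDUFA11 probe was dim, however, and above background on only 5 early and 6 late arrays. Its mean levels were -6.79 early and -6.38 late, against 4.1 and 4.2 for the 3′-most probe. The upstream NDUFA13 probe was above background on 10 early and 10 late arrays. Over all such genes the difference was most negative in cow 9, -0.39, where the respiratory chain median was highest. It was -0.19 in cow 3, between -0.10 and -0.07 in cows 1, 4, 6, 7 and 8, -0.04 in cow 10, and 0.00 and 0.01 in cows 2 and 5. Over the 32 members themselves it was -0.02 in cow 9 and most negative in cow 6, -0.17, where the respiratory chain median was lowest, and in the other cows it lay between -0.07 and -0.01. RNA integrity values are not used here, and the part of probe position and base composition in the members' changes was not tested.

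**Figure D5:**
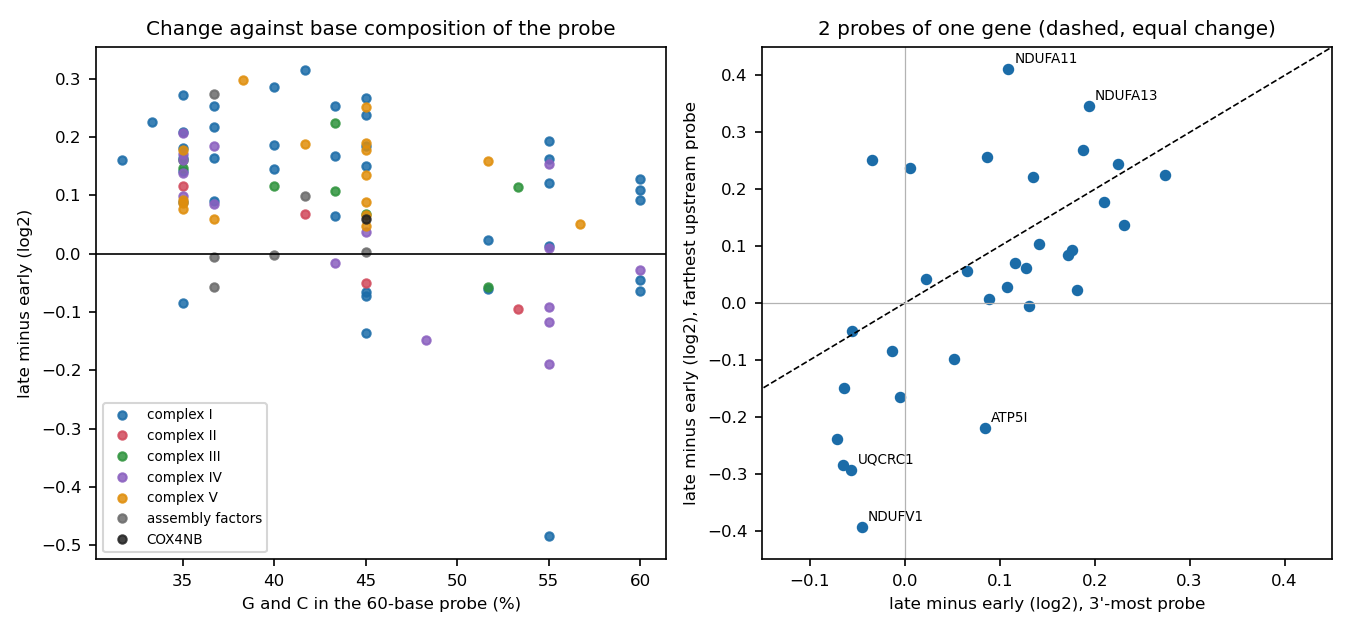
Left, late minus early change (log2, y axis) of the probe that represents each of the 90 genes against the percentage of G and C in its 60 bases (x axis), coloured by complex; r = -0.43. Right, for 32 genes, the change of the farthest upstream probe (y axis) against that of the 3′-most probe (x axis); 22 points lie below the dashed line of equal change.

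Within each period, days after calving differed between cows, and a slope per 10 days was fitted with limma over the 10 arrays of that period. No gene of the array passed in either period (0% of 19419). No member had an unadjusted p below 0.05, where 5.65% of all genes did in the early and 1.37% in the late period. In the early period 49 of 90 slopes were positive, 54.4% against 47.7% of all genes, with a median of 0.00, and the smallest p belonged to COX8B (-0.33 ± 0.18 log2 per 10 days, adjusted p 0.925) and NDUFC2 (0.11 ± 0.06). In the late period 47 were positive, 52.2% against 55.5%, and COX6A2 (0.03 ± 0.02) and ATP5A1 (0.03 ± 0.02) had the smallest p. Over 10 arrays a slope of this size cannot be told from 0, which does not show that levels were constant.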

How the data were processed

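Scanner files of 20 Agilent 4x44K bovine arrays were used. The submitters' processing notes name version 10.5.1.1 of Agilent's Feature Extraction, and per the file headers the deposited intensity read from each array is the processed signal. The deposited value table holds log2 values by the authors; it matched log2 signal minus the 75th percentile and minus each probe's median (correlation at least 0.999969 per array) and served as an alternative.

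Outlier-flagged and control spots were left out, spots of a probe averaged, and values taken as log2 signal minus each array's 75th percentile. A probe entered if well above background on at least 8 arrays, and the probe of highest mean represented its gene. Names came from RefSeq (ARS-UCD2.0), by accession for 22205 probes, symbol for 9847, synonym for 382 and gene number for 1171. Another 10048 kept the array's name, and all 90 members had a RefSeq match by some such route. R 4.3.3 and limma 3.58.1 (lmFit, eBayes, two-sided) fitted 19419 genes with cow as a block; the fit was tested on simulated data. Alternatives changed the pairing, background correction (normexp, offset 50), scaling, filter, probe choice, variance, slide and cows. Probe positions were compared for probes 300 to 100000 bases apart. Early and late arrays of a cow, paired by the design, titles and animal numbers, deviated together in 8 of 10 cows (correlation above 0.1; range -0.11 to 0.76, not in cows 6 and 9). Whether samples were processed as separate extractions is not given in the sources used here.

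Named with values are the 3 members of smallest p per complex, central subunits and isoform sets (40 genes, of which 1 is not reported here); the leading genes of each list by p; and NDUFV2, NDUFA10, COX4NB, UQCRB, NDUFB4, COX5B, further SDHA probes, NDUFA11 and NDUFA13, chosen after their values were seen, as were the comparisons of probe composition and position. Members and lists were chosen with earlier results of these data known.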

Additional observations from a re-analysis of the deposited data

Results flagged for a closer look

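Dixon's test at the 95% level was applied to 85 groups of 10 values, and chance flags about 1 in 20 of them; 4 values stood apart. The late level of NDUFA1 in cow 9 was 4.97, with the nearest other cow at 4.63. For COX6C the late level in cow 10 was 4.94 against 4.67. SDHB in the late sample of cow 6 was low at 1.26, the nearest being 1.57. COX4I2 in the early sample of cow 4 was low at -4.36, the nearest being -3.32. Cows 9 and 10 were also the cows with the highest median change of the respiratory chain genes, and cow 6 the one with the lowest. Cow 4, with the remaining flag, had a median of -0.01. The flagged genes are members that enter those medians, and a link between flags and medians was not tested.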

How the results depend on the processing

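No member passed in any setting except the fit with cow as a random effect, where 2 genes were higher late (NDUFB3 and NDUFS5). With no replicate block, dropping the pairing by cow, no member passed and the median stayed 0.11. In that fit 23 members had p below 0.05, 25.6% against 18.2% of all genes. The members' median ranged from 0.09 (quantile normalization) to 0.18 (slide as a further block), and from 0.07 to 0.15 when each cow was left out; without cows 6 and 9 together, a choice made after seeing the data, it was 0.11. Leaving out each cow gave medians of 0.12 to 0.18 in complex I, -0.05 to 0.07 in complex II, 0.07 to 0.15 in complex III, 0.01 to 0.10 in complex IV, 0.08 to 0.15 in complex V and -0.03 to 0.04 for assembly factors, with 0 members called and 0 day trends throughout. Over all genes 256 passed, against 119 with no replicate block, 724 with cow as a random effect, 114 without a filter on dim probes, 35 with slide as a random block, 0 with slide as a further block or on the shared slide, and 35 to 159 without 1 cow. Only 1 of the 5 slides held both periods, which limits every comparison here, and 10 cows on 20 arrays limit the precision to a median SE of 0.09 for the members.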
